A study of Mus musculus with 2 samples.

Results

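The Sst-low, Adarb2-low interneuron nuclei were 148 of the 14313 barcodes deposited from mouse hippocampus. The library from a Capza2 heterozygote held 65 of them among its 7801 barcodes, and the wild-type library held 83 among 6512. They were chosen by raw counts of unique molecular identifiers (UMIs), each of which marks 1 captured transcript, among the 13635 barcodes that passed a floor of 500 genes and a ceiling of 5% of UMIs from mitochondrial genes. A nucleus was taken if Gad1 and Gad2 together gave at least 3 UMIs, Sst at most 1, Adarb2 at most 4, Nxph1, Sox6, Lhx6 and Pvalb together at least 3, Slc17a7 at most 2, and Mobp and Mog together at most 1. The levels of these 11 genes are therefore given as a description of the choice and support nothing.

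The study set the cell composition of the hippocampus of mice heterozygous for a knockout allele of Capza2, labelled CAPZA2+/-, beside that of wild-type mice. Nuclei of frozen tissue were profiled with the 10x Genomics 3' v3 chemistry, which reads each transcript near its 3' end, and no other treatment was applied. There was 1 library per genotype, so genotype and library cannot be told apart and no difference between the libraries has a replicate check. Age, sex, strain, the number of mice behind each library and the deleted part of Capza2 are not given in the sources used here. Intervals below are exact 95% intervals that cover counting error only, not variation between mice or preparations.

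Capza2 encodes an alpha subunit of the capping protein, a heterodimer that binds the fast-growing end of actin filaments. Interneurons born in the medial ganglionic eminence express the transcription factors Lhx6 and Sox6 and form mainly the Pvalb and Sst families, while those of the caudal ganglionic eminence express Adarb2. Pvalb basket cells fire fast and inhibit the cell body of pyramidal cells, axo-axonic cells inhibit the axon's initial segment, and neurogliaform and ivy cells, marked by Lamp5 and often by Nos1, act slowly and by volume release in the hippocampus.

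Sequencing depth of the members was alike in both libraries. The heterozygote members held 881250 UMIs in all, with a median of 10654 per nucleus (range 4370 to 51552) and 3692 genes, and the wild-type members held 1055618, with a median of 11452 (3688 to 47895) and 3795 genes. The whole libraries held 62702888 and 58701532 UMIs. A total of 13 barcodes occurred in both libraries, and none of them was a member. Levels are given as UMIs per 1000000 UMIs of the summed nuclei (CPM), since summing the nuclei of a library leaves 1 value per library.

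Nxph1, which encodes a secreted ligand of neurexins, carried the choice. It alone reached 3 UMIs in 64 of the 65 heterozygote members and in all 83 wild-type members, with 0 to 105 UMIs per nucleus (median 28) and 5 to 131 (median 25). Without it, Sox6, Lhx6 and Pvalb together reached 3 UMIs in 38 and 58 members and were all at 0 in 11 and 13. Sox6 was detected in 45 and 59 members, Lhx6 in 34 and 31, Gad1, which makes GABA, in 65 and 80, and Gad2 in 56 and 72. Among the genes that the choice limits, Sst was present at exactly 1 UMI in 15 and 27 members, Adarb2 was detected in 13 and 13, Slc17a7 in 20 and 21, Mobp in 4 and 3, and Mog in 2 and 2.

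Few nuclei lay near the edges of the choice except for Gad1, Gad2 and Sst. Exactly 3 UMIs of Gad1 and Gad2 were found in 11 members of each library, and 12 and 14 nuclei that met every other condition fell just outside with 2. With 2 UMIs of Sst, 5 and 16 nuclei fell outside, and with 5 UMIs of Adarb2, 2 and 2 did. No member had a sum of exactly 3 for Nxph1, Sox6, Lhx6 and Pvalb, and 1 heterozygote and 0 wild-type nuclei fell outside with 2.

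The choice was meant to take mostly the Pvalb type together with other neurons from the medial ganglionic eminence, but Pvalb itself was missed in most nuclei of each library. Pvalb, a calcium buffer of fast-spiking cells, was detected in 28 of 65 heterozygote and 39 of 83 wild-type members, and with at least 2 UMIs in 13 and 22. Its per-nucleus count ran from 0 to 5 with a median of 0 in each library, and its summed level was 54.5 CPM (48 UMIs) and 72.9 CPM (77 UMIs). Shares of nuclei with a UMI were read against excitatory nuclei, defined by at least 5 UMIs of Slc17a7 and no Gad1 or Gad2 (493 and 429 nuclei, with median depths of 17134 and 16916 UMIs). Pvalb was present in 43.1% and 47.0% of the members and in 4.06% and 4.20% of these excitatory nuclei, a description only, since Pvalb was part of the choice. The nuclei without a Pvalb UMI were also shallower, with medians of 9947 and 9281.5 UMIs against 13395 and 12990 in those with one.

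**Figure D1:**
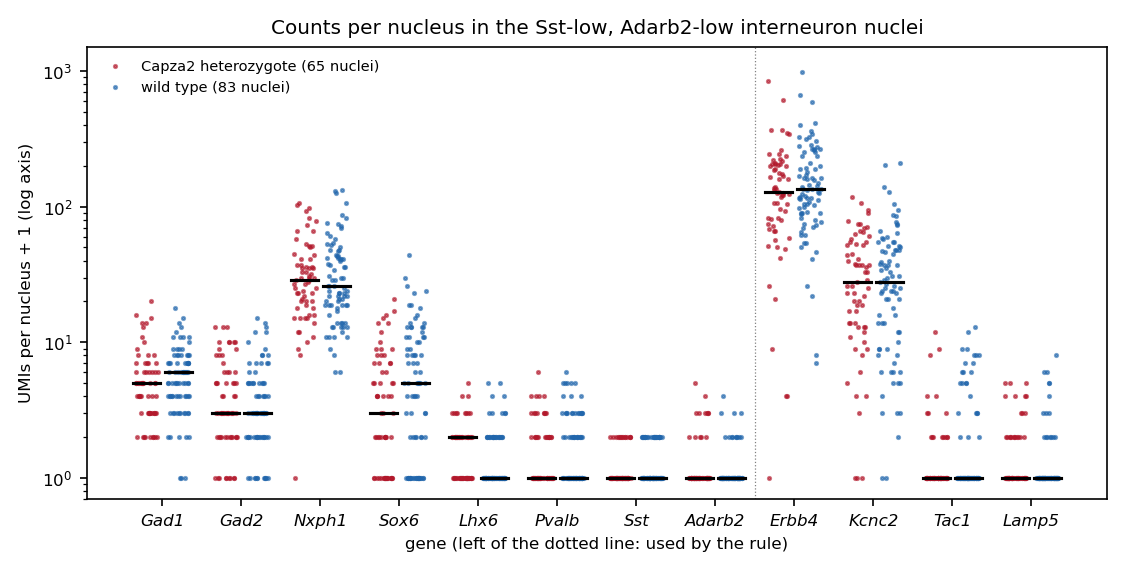
UMIs + 1 per nucleus on a log axis for 12 genes (horizontal axis), 1 point per Sst-low, Adarb2-low nucleus of the heterozygote (65, red) and wild-type (83, blue) libraries, with bars at the median and the genes used by the choice left of the dotted line. Medians of Nxph1 (28 and 25), Erbb4 (127 and 134) and Kcnc2 (27 and 27) lie well above 0, whereas those of Pvalb, Tac1 and Lamp5 lie at 0.

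Clustering the 148 nuclei on their own gave 7 subgroups, each with nuclei of both libraries. Subgroup levels are descriptions, because the same counts formed the subgroups. Subgroups 2, 3 and 4 (28, 22 and 22 nuclei) carried Pvalb in 17, 15 and 16 nuclei, at 92, 121 and 98 CPM, and are called Pvalb basket-like. Together they held 72 nuclei, 48.6% of the members, and 99 of the 125 Pvalb UMIs. By library, 31 of 65 heterozygote and 41 of 83 wild-type members were in these 3 subgroups.

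Syt2, the fast calcium sensor of basket cell terminals, marked the same 3 subgroups, with UMIs in 18, 11 and 18 nuclei at 127, 154 and 212 CPM. In the other subgroups it was found only in 3 nuclei of subgroup 6. Btbd11, a scaffold protein of interneuron synapses, stood at 747, 695 and 442 CPM in subgroups 2, 3 and 4 and between 103 and 173 CPM elsewhere. Kcnc1, a Kv3 potassium channel subunit that allows brief action potentials, was found in 26, 20 and 22 of their nuclei, at 318, 309 and 500 CPM. It was not particular to them, at 258, 196 and 286 CPM in subgroups 5, 6 and 7 and 172 CPM in subgroup 1. Other basket cell markers overlapped with the rest. Erbb4 stood at 12081, 14926 and 14955 CPM, against 7476 to 16407 CPM elsewhere, highest in subgroup 1. Cntnap4 stood at 1409, 1544 and 1714 CPM, against 505 to 1630 CPM elsewhere. Cplx1 stood at 121, 114 and 94.7 CPM, against 37.8 to 101 CPM elsewhere. The 3 subgroups differed in Tac1, the substance P precursor, which was in 19 nuclei of subgroup 2 at 251 CPM but in 3 and 1 nuclei of subgroups 3 and 4, at 27 and 6 CPM. Sox6 followed a like order, at 884, 638 and 471 CPM. The genes with the highest ratio over the other members were Eya1, Kcnip4, Tac1 and Tmem132c in subgroup 2, Lrmda, Mypn and Cdh7 in subgroup 3, and Gpc5, Ncam2 and Gfra1 in subgroup 4, where the Gpc5 UMIs came from 3 nuclei.

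Subgroup 1, with 36 nuclei, was the largest and is called Lamp5 neurogliaform or ivy-like. Lamp5, a membrane protein of these cells, was found in 30 of its nuclei at 198 CPM and in 0 or 1 nuclei of subgroups 2 to 5. Reln, an extracellular matrix protein, was in 26 nuclei at 527 CPM, the nitric oxide synthase Nos1 in 20, the transcription regulator Id2 in 19 and the neuropeptide Npy in 16. Only 1 of the 36 nuclei had Pvalb, and none had Syt2. Gad2 was highest here, at 619 CPM against 129 to 274 CPM in the other subgroups. Lhx6 was in 20 of the 36 and Adarb2, below the limit of the choice, in 13. Their leading genes were Sema3c, Hcrtr2, Dchs2, Vcan and Lamp5.

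Subgroup 7, with 8 nuclei, is called axo-axonic-like. The netrin receptor Unc5b was in 7 of them, the vasoactive intestinal peptide receptor Vipr2 in 5, the substance P receptor Tacr1 in 5, and C1ql1 and Pthlh in 3 each. Vipr2 was in no other member. Its leading genes were Cntnap5b, Thsd7a, Cntn4 and Cntn3.

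Subgroups 5 and 6 were left without a name. Subgroup 5 (20 nuclei) held Npy in 12 nuclei at 443 CPM, Reln in 13, Tac1 in 10 at 189 CPM, Col11a1 in 13 and Pvalb in 9. It was led by Synpr, Stk32a, Npy and Olfm3, and Elfn1, which marks Sst interneurons, was in 6 of its nuclei, while Chodl was in none. Subgroup 6 (12 nuclei, 7 and 5 by library) was the deepest, with a median of 22250 UMIs against 9573 to 12903.5 in the others, and was led by Meis2, Tshz2, Tafa1, Ryr3 and Foxp2. The excitatory marker Neurod6 was in 10 of its nuclei, and its median doublet score was 0.131 against 0.0215 to 0.0529 elsewhere. The 4 members that removal of the highest doublet scores would take were all in subgroup 6. They were kept, and results that rest on subgroup 6 are given with and without it.

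**Figure D2:**
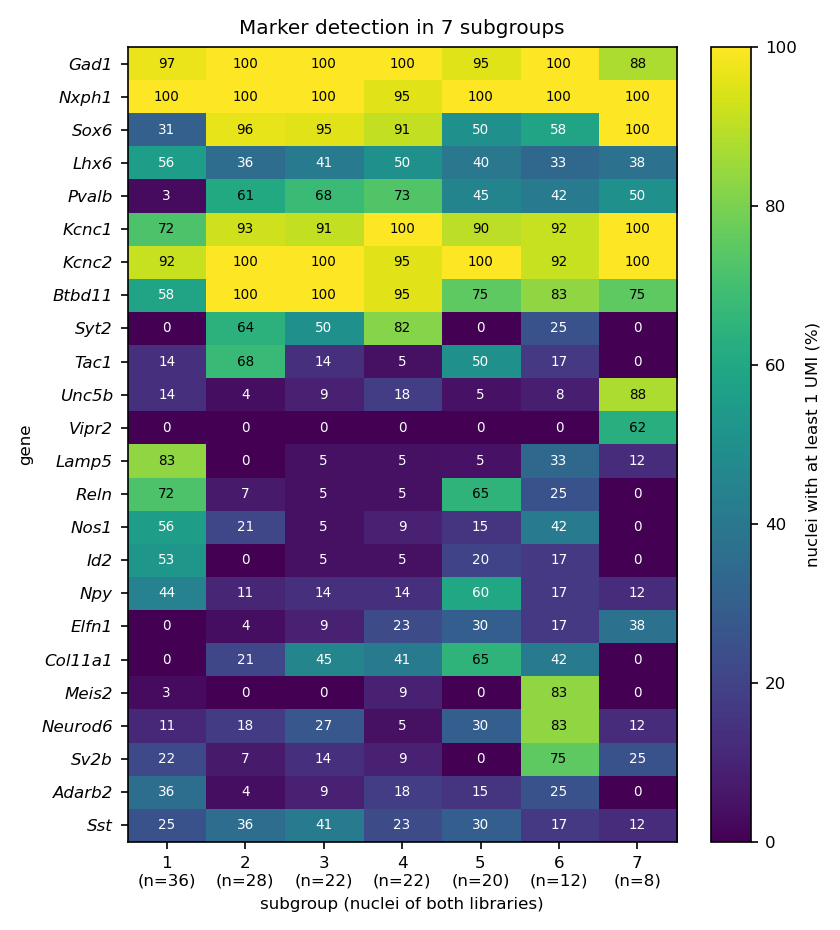
Percent of nuclei with at least 1 UMI of each marker gene (vertical axis) in the 7 subgroups of the Sst-low, Adarb2-low nuclei (horizontal axis, nuclei of both libraries), as colour and number. Pvalb and Syt2 are most often detected in subgroups 2, 3 and 4, Lamp5 in subgroup 1 (30 of 36 nuclei), Vipr2 in subgroup 7 (5 of 8) and Neurod6 in subgroup 6 (10 of 12).

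Genes outside the choice were next set against 2 other sets of interneurons of the same libraries, chosen with the same limits on Gad1, Gad2, Slc17a7, Mobp and Mog. The Sst interneurons had at least 2 UMIs of Sst and at most 4 of Adarb2 (79 and 97 nuclei), and the Adarb2 interneurons had at least 5 of Adarb2 and at most 1 of Sst (124 and 156 nuclei). Both log2 ratios are given, heterozygote library first, and a gene counted as higher or lower when it passed 2-fold the same way in both libraries. Genes with under 100 UMIs over the 4 sums were left out.

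Against Sst interneurons, 102 of 5896 genes compared (1.73%) were higher in the Sst-low, Adarb2-low nuclei of both libraries, 110 (1.87%) were lower, and 1 (0.017%) was past 2-fold in opposite directions. Of the 26 genes of a fast-spiking Pvalb cell list, 22 were compared, 6 were higher and 1 was lower, with median log2 ratios of 0.90 and 0.73 against -0.05 and -0.04 over all genes. Among the 6 were Syt2 (3.64 and 2.18), Erbb4 (2.52 and 1.87), Btbd11 (1.56 and 1.60), the contactin-associated protein Cntnap4 (1.90 and 1.17) and Plcxd3 (1.38 and 1.12). Syt2 stood at 91.9 and 87.2 CPM in the members and at 7.36 and 19.2 CPM in Sst interneurons. Kcnc1 came just under the threshold at 0.82 and 0.99, while Kcnc2 was nearly level with Sst interneurons at 0.07 and 0.17. The lower one was Elfn1 (-3.45 and -3.06), which encodes a synaptic adhesion protein that also marks Sst interneurons.

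Erbb4, the neuregulin receptor tyrosine kinase of interneurons, was detected in 64 of 65 and in all 83 members. Its count ran from 0 to 844 UMIs per nucleus (median 127) in the heterozygote library and from 6 to 984 (median 134) in the wild type, giving 11597 and 13742 CPM. Sst interneurons stood at 2027 and 3759 CPM and Adarb2 interneurons at 7333 and 7440 CPM. Among excitatory nuclei, 15.6% and 16.1% had an Erbb4 UMI, against 98.5% and 100% of the members. With every nucleus thinned to 2000 UMIs these shares were 3.04% and 3.97% against 95.4% and 98.8%. Erbb4 spans 68032186 to 69108059 on the minus strand of chromosome 1 in GRCm38.

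Outside that list, the named genes higher than in Sst interneurons had varied roles. Among basement membrane matrix proteins, Fras1 had 92 and 137 UMIs in the members and 9 and 16 in the Sst interneurons, log2 ratios of 3.46 and 3.22, and Frem1 had 48 and 110 UMIs against 4 and 3. The transcription factor gene Zbtb7c had 52 and 63 UMIs against 7 and 3. The phosphodiesterase Pde11a (3.16 and 3.16), Mctp2 (3.56 and 2.39), the hyaluronan-binding protein Cemip (2.98 and 2.46), Zfp804a (2.65 and 2.12), the GDNF receptor Gfra1 (2.31 and 3.29) and Mypn (2.23 and 2.07) followed, with Syt2 completing the set of 10.

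The genes lowest against Sst interneurons included glutamate receptor subunits. The NMDA receptor subunit Grin3a was at -2.87 and -2.51. Of 21 glutamate receptor genes compared, none was higher and 6 were lower, with medians of -0.20 and -0.36. Also among the 6 were the metabotropic receptors Grm7 (-2.08 and -1.70) and Grm8 (-1.71 and -2.40) and the kainate receptor subunit Grik3 (-1.48 and -1.69). The named set also held the vesicle protein Synpr (-3.38 and -2.70), Cacna2d3 (-2.41 and -2.84), Reln (-2.50 and -2.38), the laminin subunit Lama4 (8 and 3 UMIs against 47 and 44), the protease inhibitor Serpine2 (-2.39 and -2.36), the glycosyltransferase Mgat4c (-2.38 and -2.59) and Plpp4 (1 and 2 UMIs against 56 and 51).

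Against Adarb2 interneurons, 149 of 7021 genes (2.12%) were higher in both libraries, 233 (3.32%) were lower, and 4 (0.057%) were past 2-fold in opposite directions. The fast-spiking list had 23 members compared, of which 9 were higher and 0 lower, with medians of 0.99 and 0.96 against -0.04 and -0.05 over all genes. These were Syt2 (4.78 and 3.28), Tac1 (46 and 117 UMIs against 8 and 3), Plcxd3 (2.90 and 2.12), Cntnap4 (1.54 and 1.78), the metabolic coactivator Ppargc1a (1.52 and 1.56), Kcnc2 (1.43 and 1.44), Btbd11 (1.29 and 1.30), the potassium channel subunit Kcns3 (1.25 and 1.35) and the orphan nuclear receptor Esrrg, which had 538 and 740 UMIs in the members. Kcnc2 was in 95.4% and 97.6% of the members, with 0 to 117 and 0 to 210 UMIs and a median of 27 in each library, and it stood at 2530.5 and 2930.0 CPM. It is thus a gene on which the members stood apart from Adarb2 interneurons and not from Sst interneurons by this threshold.

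Other genes named against Adarb2 interneurons encoded structural, secreted and signalling proteins. The sarcomere protein gene Mypn had 39 and 58 UMIs against 2 and 4, and the corticotropin-releasing hormone binding protein Crhbp 40 and 64 against 3 and 8. The adhesion protein Il1rapl2 (4.57 and 3.02), the protease Tll1 (3.94 and 2.95), the receptor ligand Alkal2 (3.05 and 3.88), Tmem44 (3.09 and 3.34) and the kinase Nek7 (3.05 and 2.99) were higher. Nxph2, another neurexophilin, was at 3.74 in the heterozygote library, and in the wild type it had 54 UMIs against 0, at least 32.2-fold higher with 3 counts taken as the floor in the class at 0.

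Markers of the caudal ganglionic eminence were low beyond Adarb2 itself. Of 10 compared, none was higher and 9 were lower, with medians of -2.73 and -3.64. The neuropeptide Vip had 0 UMIs against 418, at least 81.9-fold lower, and 2 against 357. The cannabinoid receptor Cnr1 had 14 against 908 UMIs and 24 against 1337, at -5.25 and -4.96. Npas1, a transcription factor of these cells, had 2 and 3 UMIs against 68 and 123. Syt6 had no UMI in either library's members against 89 and 90, at least 17.4- and 16.8-fold lower, and Megf10 had 0 against 54, at least 10.6-fold lower, and 2 against 90 in the wild type. The chemokine Cxcl14 (2 and 4 UMIs against 98 and 105), the neuropeptide receptor Npy1r (3 and 1 against 71 and 79), the G protein regulator Rgs12 (2 and 7 against 123 and 158), Scml4 (2 and 3 against 41 and 60) and the kinase Stk32b (2 and 3 against 84 and 57) completed the set. Of 25 guidance genes, 1 was higher and 8 lower, and of 9 Lamp5 cell markers 0 were higher and 4 lower.

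**Figure D3:**
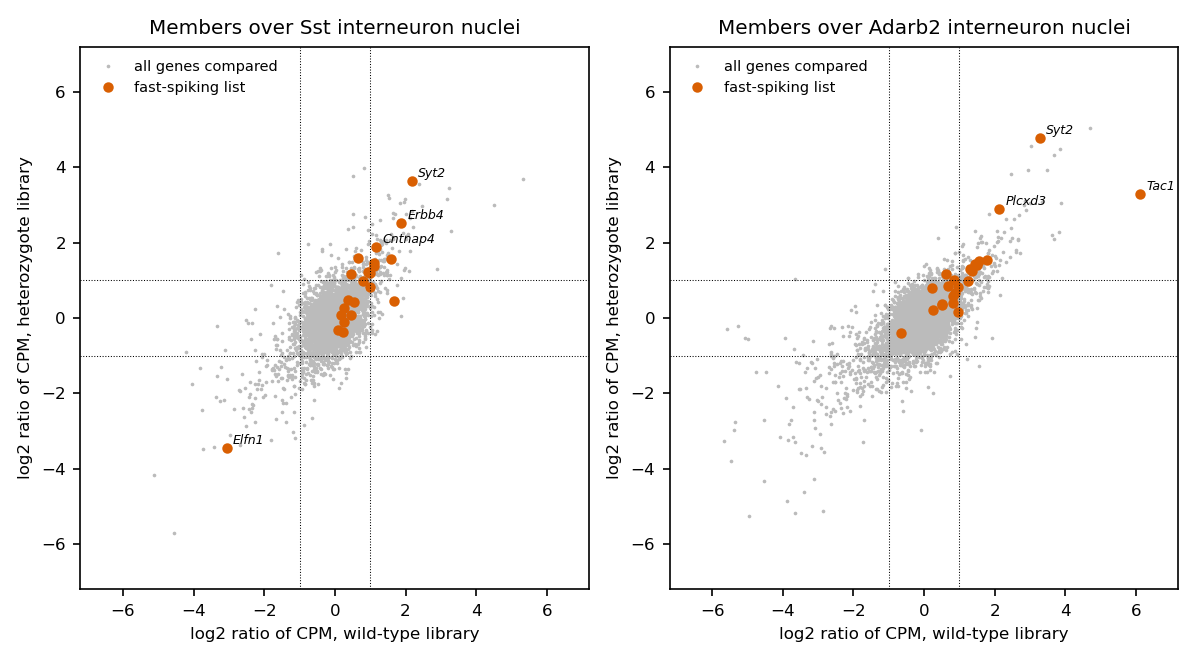
Log2 ratio of CPM in the Sst-low, Adarb2-low nuclei over Sst interneurons (left) and over Adarb2 interneurons (right), in the wild-type library (horizontal axis) and the heterozygote library (vertical axis), 1 point per gene, with dotted lines at 2-fold. Genes of the fast-spiking list (orange) lie mostly up and right of the other genes, with Syt2 at 3.64 and 4.78 in the heterozygote library, and Elfn1 apart at -3.45 over Sst interneurons.

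The members with a Pvalb UMI were set beside those without one as a further description. Syt2 stood at 139 against 36.8 CPM in the heterozygote library and at 136 against 23.9 CPM in the wild type. Kcnc1 stood at 357 against 184 and at 388 against 211 CPM, and Ppargc1a at 298 against 138 and at 304 against 176 CPM. Of the 26 genes of the fast-spiking list, 21 had a higher level beside Pvalb in both libraries and 4 in 1 library only. Kcns3 was higher in neither (127 against 179 and 151 against 163 CPM). Some of these rest on few UMIs, such as Scn4b with 2 against 1 and 4 against 0. The share over all genes was not computed, so the count describes the list only. Erbb4 differed little, at 11763 against 11404 and at 14348 against 12957 CPM. In contrast, Lamp5 stood at 12.7 against 88.4 and at 0 against 89.1 CPM, and Reln at 63.3 against 255 and at 16.8 against 237 CPM.

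The study's question was the share of cell populations. The members made up 0.901% of the kept heterozygote nuclei (interval 0.696 to 1.15) and 1.29% of the wild-type nuclei (1.03 to 1.60), a ratio of 0.698 (0.496 to 0.977). The ratio was 0.733 (0.626 to 0.858) for all inhibitory nuclei, 0.726 (0.532 to 0.987) for Sst interneurons, 0.708 (0.555 to 0.902) for Adarb2 interneurons and 1.11 (0.594 to 2.11) for the remaining inhibitory nuclei, of which there were 25 and 20. Within the inhibitory nuclei the members' shares were 22.2% (17.6 to 27.4) and 23.3% (19.0 to 28.1), a ratio of 0.952 (0.677 to 1.33). The interval of the first ratio held 1 when nuclei needed at least 1000 genes (0.727, 0.517 to 1.02), at least 5000 UMIs (0.819, 0.578 to 1.16), at least 2 UMIs of Sox6, Lhx6 and Pvalb in place of the sum with Nxph1 (0.679, 0.456 to 1.004), or when subgroup 1 was left out (0.745, 0.503 to 1.10). With 1 library per genotype, a difference in the cells taken up by the preparation cannot be told apart from one between genotypes.

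The targeted gene was no check of the labels in these nuclei. Capza2 (ENSMUSG00000015733, chromosome 6, 17636234 to 17666972, plus strand, GRCm38) had 45 UMIs in 31 heterozygote members and 48 UMIs in 32 wild-type members, with 0 to 3 per nucleus and a median of 0 in each library. The levels were 51.1 and 45.5 CPM, a log2 ratio of heterozygote over wild type of 0.17 (-0.45 to 0.78). The same ratio was -0.96 (-1.68 to -0.28) in Sst interneurons, with 26 and 61 UMIs, and -0.42 (-0.84 to -0.02) in Adarb2 interneurons, with 81 and 137. The members' interval held 0 and reached down to -0.45, and whether the ratio differs between these sets was not tested. A 3' tag outside the deleted part would not show the deletion. Among its partners, the paralogue Capza1 had 65 and 79 UMIs (-0.02, -0.52 to 0.47), and the beta subunit Capzb had 23 and 41 (-0.57, -1.38 to 0.20).

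Across genes, the members of both libraries were close. Of 3252 genes with at least 100 UMIs over both, 117 (3.6%) were over 1.5-fold higher in the heterozygote members and 85 (2.61%) were over 1.5-fold lower, with a median log2 ratio of -0.02. These are counts of ratios in a single pair of libraries, not of changed genes.

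The gene with the highest interval bound in the heterozygote members was Ttr, transthyretin, a carrier protein that choroid plexus makes in great amounts. It had 96 UMIs in 49 of 65 nuclei against 18 UMIs in 17 of 83, a log2 ratio of 2.68 (1.94 to 3.49). Its ratio was 1.52 in Sst and 1.51 in Adarb2 interneurons. It was in 75.4% and 20.5% of the members and in 72.0% and 30.3% of the excitatory nuclei. With nuclei thinned to 2000 UMIs, 18.5% and 6.02% of the members and 20.7% and 4.44% of the excitatory nuclei had it. The share in the members thus stood at or near that of a cell type that should lack the gene. Whether these UMIs came from transcripts of other cells was not tested.

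Dcc, the netrin-1 receptor, had 424 UMIs in 28 heterozygote members and 136 UMIs in 29 wild-type members, a log2 ratio of 1.90 (1.62 to 2.19). The ratios in Sst and Adarb2 interneurons were -0.02 and -0.07. Subgroups 5 and 6 supplied most UMIs, 175 and 176 against 66 and 21, and without subgroup 6 the ratio was 1.54. In the Pvalb basket-like subgroups alone it was 1.41, and with each nucleus weighted alike 1.17. The type II cadherin Cdh8 followed at 1.31 (1.04 to 1.58), with 347 and 168 UMIs, and stood at 1.64 in the Pvalb basket-like subgroups.

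Several of the other higher genes rested on subgroup 6. The delta-sarcoglycan gene Sgcd (636 and 326 UMIs) had a log2 ratio of 1.22 with subgroup 6 and 0.64 without it. The R-type calcium channel gene Cacna1e stood at 1.23 and 0.70, and the growth factor Ptn at 1.31 and 0.83. The muscarinic receptor Chrm3 stood at 0.99 and 0.61, and the calcium channel subunit Cacnb2 at 0.87 and 0.43. The notch coactivator Maml2 stood at 1.21 and 0.68. The ratio of Cacnb2 thus moved below 1.5-fold. The protease inhibitor Cst3, a gene abundant in glia, was at 1.36 (0.96 to 1.78) with subgroup 6 and 1.10 without it, with UMIs in 57 and 45 nuclei.

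For Ncam2 and Tll1, subgroup 4 supplied more UMIs than any other subgroup. The adhesion molecule Ncam2 had 981 and 641 UMIs in 38 and 40 nuclei, a log2 ratio of 0.87 (0.73 to 1.02). Of these, 574 and 242 were in subgroup 4, where the levels were 2873 and 1629 CPM. Subgroup 5 went the other way at 1088 and 1641 CPM, as did subgroup 3 at 31.2 and 206 CPM. Subgroup 2 had 0 and 2 UMIs. Tll1, at 0.88 (0.67 to 1.10), had 220 of its 459 heterozygote UMIs and 101 of its 298 wild-type UMIs in subgroup 4, and 104 and 52 in subgroup 5. Subgroup 4 held 13 heterozygote and 9 wild-type nuclei.

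Among the genes lower in the heterozygote members, Tac1 belonged to the fast-spiking list. It had 46 UMIs in 16 nuclei against 117 UMIs in 24, at 52.2 and 111 CPM, a log2 ratio of -1.09 (-1.61 to -0.58). The highest single nucleus had 11 UMIs in the heterozygote and 12 in the wild type, so the libraries overlapped nucleus by nucleus. Most of the wild-type UMIs, 66, were in subgroup 2, which held 20 wild-type and 8 heterozygote nuclei, and in that subgroup the levels were nearer, at 209 and 262 CPM. Sst interneurons had a ratio of 0.12 (-0.57 to 0.80), from 36 and 40 UMIs. Adarb2 interneurons had one of 1.75 from only 8 and 3 UMIs, and its interval held 0 (-0.31 to 4.30). Stxbp6, a gene of exocytosis that also marks dentate granule cells, had a ratio of -0.95, with 99 of its 185 wild-type UMIs in subgroup 2. Unlike those of Tac1, its levels stayed apart within that subgroup, at 161 CPM in the heterozygote and 393 CPM in the wild type.

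Arhgap15, a Rac GTPase-activating protein, had 26 and 87 UMIs in 16 and 39 nuclei, a log2 ratio of -1.48 (-2.17 to -0.84), against 0.41 and 0.20 in Sst and Adarb2 interneurons. Scg2, secretogranin II of dense-core vesicles, had 56 and 142 UMIs in 28 and 55 nuclei (-1.08, -1.55 to -0.63), against 0.22 and 0.14. Ifrd1, a transcriptional coregulator, had 30 and 90 UMIs in 21 and 48 nuclei (-1.32, -1.97 to -0.71). In the Pvalb basket-like subgroups alone, Arhgap15 stood at -1.25 and Scg2 at -1.17. For both genes the nuclei with a UMI were fewer in the heterozygote, and the other interneurons did not share the direction. Whether the ratios differ between the interneuron sets was not tested.

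The remaining lower genes were mixed. Vwc2l, a secreted protein with a von Willebrand factor C domain, stood at -1.27 and the solute carrier gene Slc35f4 at -0.81. Prr16 stood at -1.35 with subgroup 6, which held 51 of its 98 wild-type UMIs, and at -0.60 without it. Frem1, found in 12 and 17 nuclei and mainly in subgroup 1 (32 and 83 UMIs), stood at -0.94 and, without subgroup 6, at -0.55, under 1.5-fold. Luzp2 (-0.67, -0.92 to -0.42), with 63 and 161 UMIs in subgroup 4, went the opposite way in Sst interneurons (1.15), as did Zfp804b (-0.51, -0.61 to -0.41, against 0.88). Zfp804b did not pass 1.5-fold and was named for its narrow interval, with 1253 and 2133 UMIs.

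**Figure D4:**
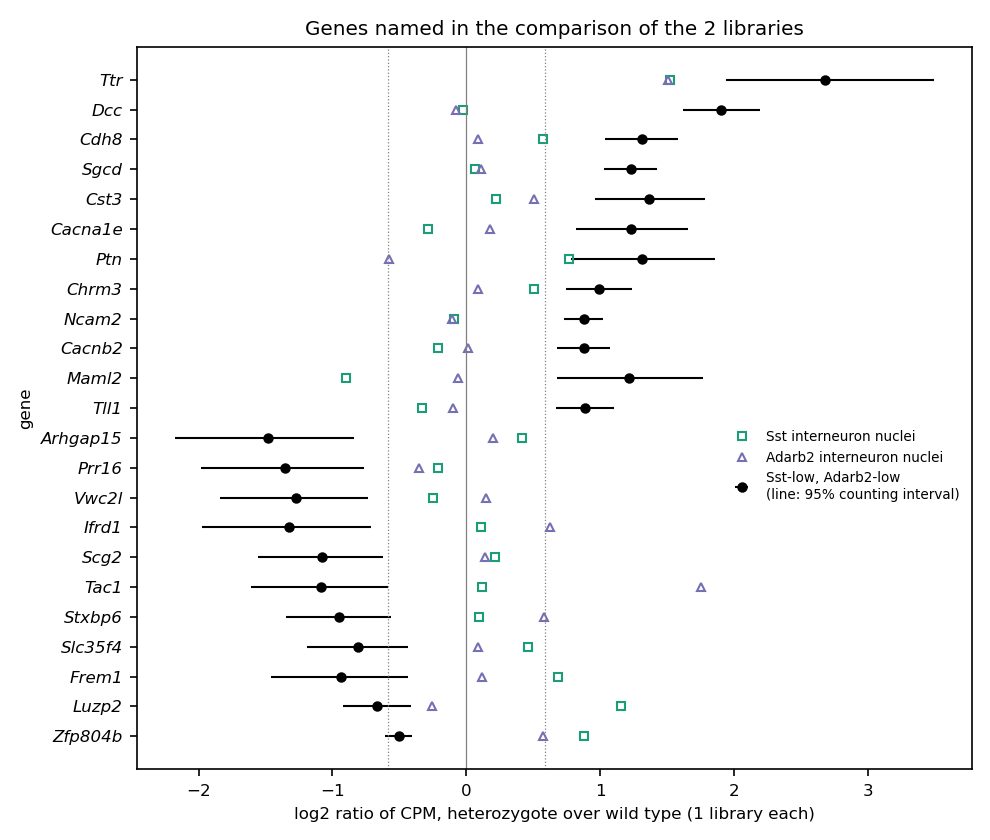
Ratio of heterozygote to wild-type CPM on a log2 scale (horizontal axis) for named genes in the Sst-low, Adarb2-low nuclei (filled circles with exact 95% counting intervals), Sst interneurons (squares) and Adarb2 interneurons (triangles), with dotted lines at 1.5-fold. The ratio of Ttr lies to the right in all 3 sets, while Dcc lies to the right at 1.90 in the members and near 0 in the others.

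**Figure D5:**
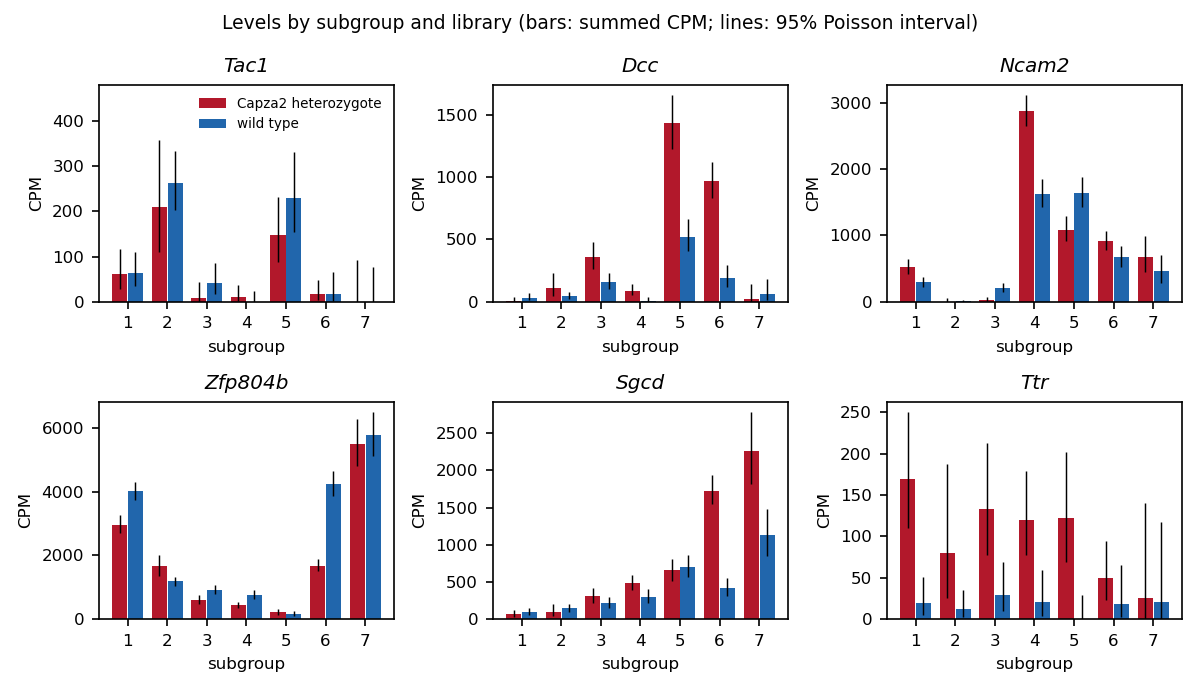
CPM (vertical axes) of 6 named genes in each subgroup of the Sst-low, Adarb2-low nuclei, with bars for the summed nuclei of each library and lines for exact 95% Poisson intervals, which cover counting error only. Bars for Ttr are higher in the heterozygote library in all 7 subgroups, whereas those of Tac1 are high in subgroups 2 and 5 and those of Ncam2 in subgroup 4.

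Markers of other cell types were also at unlike levels in the members of the libraries. The summed log2 ratio of 8 astrocyte markers was 1.89 (1.45 to 2.34), with 176 UMIs in the heterozygote and 57 in the wild type. Many of the heterozygote UMIs lay in few nuclei. Slc1a2 had 39 in 3 nuclei of subgroup 4 and 34 in 4 nuclei of subgroup 6, against 0 and 8 in the wild type. The 1 astrocyte marker that passed the floor stood at 1.77, and at 1.67 without subgroup 6. Per 10000 UMIs of a nucleus the astrocyte sum had a median of 0 in each library and reached 98.4 and 4.74, and Aqp4, Gfap and Slc7a10 were at 0 in the wild type. The sum of 7 choroid plexus markers was at 1.40 (1.04 to 1.76), with Folr1 at 0 in each library and Kl and Clic6 at 0 in the wild type. Of its 213 and 97 UMIs, Ttr gave 96 and 18. Htr2c had 57 UMIs in 4 heterozygote nuclei of subgroup 6 and 6 UMIs in 2 wild-type nuclei. The median of the 2 choroid plexus genes compared was 1.73, and 0.21 without subgroup 6, where Ttr stood at 2.88. Microglial markers summed to 122 and 81 UMIs (0.85, 0.43 to 1.28) and oligodendrocyte markers to 114 and 77 (0.83, 0.40 to 1.26). St18, an oligodendrocyte marker, gave 40 of the 114 in 3 heterozygote nuclei of subgroup 6, and had 0 UMIs in its wild-type nuclei. Vascular markers summed to 14 and 3 UMIs (2.48, 0.64 to 4.92), with 3 of 9 and 8 of 9 at 0, and red cell genes to 13 and 9 UMIs (0.79, -0.55 to 2.20). Oligodendrocyte precursor markers were at 0.16 (-0.08 to 0.40) with Pdgfra at 0, and dentate granule markers at 0.05 (-0.11 to 0.21).

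Excitatory markers summed to 948 and 702 UMIs (0.69, 0.55 to 0.84). Tafa1 gave 194 and 22 of these, and 192 of the 216 were in subgroup 6. It was kept out of the named genes because over 25% of its heterozygote UMIs lay in 1 nucleus. The part of these other cells' transcripts in the ratios above was not tested. Without subgroup 6, 77 of 2802 genes compared (2.75%) were over 1.5-fold higher and 72 (2.57%) lower.

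The fast-spiking list as a whole lay slightly lower in the heterozygote members. Of 21 genes compared, none was over 1.5-fold higher and 1, Tac1, was lower, with a median log2 ratio of -0.13 against -0.02 over all genes, and 3 of 21 ratios were above 0. Kcnc1, with 244 and 328 UMIs, was at -0.17 and Kcnc2 at -0.21 (-0.29 to -0.13). The sign of Kcnc2 turned with each nucleus weighted alike (0.05) and with nuclei thinned to 2000 UMIs (0.09), and the list's median was -0.04 without subgroup 6 or with the highest doublet scores removed. Erbb4 was at -0.24 (-0.28 to -0.21), Btbd11 at -0.46 (-0.68 to -0.24) and the low-threshold potassium channel gene Kcna2 at -0.54 (-1.03 to -0.06). Syt2, with 81 and 92 UMIs, stood at 91.9 and 87.2 CPM and did not share the direction. Of 4 neuregulin pathway genes compared, none passed 1.5-fold, with a median of -0.25. The ligands Nrg1, Nrg2 and Nrg3 were at -0.51, -0.25 and -0.08, and Erbb2 and Erbb3 had no UMI in either library.

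Most genes of GABA and of interneuron identity were within 1.5-fold. Of 5 genes of GABA synthesis and transport compared, none passed 1.5-fold, with a median of -0.22. The GABA transaminase Abat was lowest at -0.54 (-0.92 to -0.17) and the glutamate transporter Slc1a1 highest at 0.32. Of 7 transcription regulators of these interneurons, none was over 1.5-fold higher and 1, the splicing factor Rbfox3 (-0.65, -1.05 to -0.26), was lower, with a median of -0.23. Sox6, which the choice used and which is not among the 7, had 245 and 516 UMIs, a log2 ratio of -0.81 (-1.04 to -0.59) given as a description. Maf stood at -0.45, Mef2c at -0.23 and Zeb2 at 0.06. Of 3 Lamp5 cell markers compared, 1 was higher, Npy (0.77, 0.32 to 1.23), which also gave the single count over 1.5-fold higher among 3 Sst cell markers. Among 6 neuropeptide and receptor genes, Npy was higher and Tac1 lower. The 2 caudal ganglionic eminence markers and 2 striatal markers compared, and the axo-axonic marker Cemip (-0.15), did not pass 1.5-fold.

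Ion channel and receptor genes over 1.5-fold are read beside the 3.6% of all genes that were higher. Among 24 potassium channel genes, 1 was over 1.5-fold higher, the sodium-activated channel Kcnt2 (0.88, 0.51 to 1.27), and the median was -0.04. Among 16 sodium and calcium channel genes, Cacna1e, Cacnb2 and Cacna2d3 (0.75) were higher, with a median of 0.04, and Cacna2d3 stood at 0.84 without subgroup 6. Of 12 GABA-A receptor genes, Gabra5 (0.98, 0.44 to 1.55) and Gabra2 (0.71) were higher, and 1 of 20 glutamate receptor genes was, with medians of 0.13 and 0.16. None of these 4 lists had a member over 1.5-fold lower. Without subgroup 6, Kcnt2 stood at 0.36, Gabra5 at 0.56 and Gabra2 at 0.36, all under 1.5-fold. Of 18 presynaptic release genes, the synapsin Syn3 (-0.75, -1.27 to -0.25) was lower and none was higher, with a median of -0.07.

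Guidance genes, which steer axons and migrating cells, were compared for 20 members, of which 5 were higher and 1 lower, where 3.6% and 2.61% of all genes were. The median was 0.26 against -0.02 over all genes, and 0.12 without subgroup 6 or 0.11 with the highest doublet scores removed. They were Dcc, the semaphorins Sema5a (1.28) and Sema3c (0.75), the ephrin receptor Epha4 (0.94) and the semaphorin receptor Nrp1 (0.75), and the lower one was Ntng1 (-0.92), a synaptic netrin-G protein. Without subgroup 6, Sema5a and Sema3c stood at 1.38 and 0.88, but Epha4 at 0.43, Nrp1 at 0.17 and Ntng1 at -0.19, under 1.5-fold. Without the nucleus with most UMIs in each library, Ntng1 turned to 0.44. Of 29 synaptic adhesion genes, Dscam (0.78) was higher and Clstn3 (-0.68) lower, with a median of 0.06, and both were under 1.5-fold without subgroup 6 (0.48 and -0.57). Of 4 perineuronal net genes, the proteoglycan Vcan (0.75) and the phosphatase Ptprz1 (0.73) were higher, with a median of 0.44, and the link protein Hapln1 was at 0.16.

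In lists of actin genes, which the genotype bears on, none of the genes compared was over 1.5-fold either way. Of all genes compared, 6.21% were. Of 18 capping genes listed, 9 were compared, and Capza2 and Capzb, each with under 100 UMIs, were not among them. The median was 0.08 over 9 capping genes, 0.12 over 10 genes of the Arp2/3 and WAVE complexes, which branch actin filaments, and 0.04 over 9 genes of filaments and turnover. The WAVE complex subunit Nckap1 stood at 0.45 (0.12 to 0.79).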

How the data were processed

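The authors deposited unnormalized counts of UMIs, made with Cell Ranger 7.1.0 and mm10 according to the submitters' processing notes and per the file headers, from 1 heterozygote and 1 wild-type single-nucleus library. Further steps used scipy 1.17.1 for intervals, scanpy 1.11.5 and leidenalg 0.10.2 for subgroups, and numpy 2.4.6 and matplotlib 3.10.9 under Python 3.11.15. The members and the gene lists were chosen with earlier results of these data known. Gene identifiers were matched to GENCODE M21 on GRCm38 (32235 of 32285).

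Counts were summed over the members of each library and scaled to CPM. With 1 library per genotype no test across libraries was made: ratios carry exact conditional binomial intervals, levels Poisson intervals and shares Clopper-Pearson intervals, checked on simulated data. Gene-wide comparisons used genes with at least 100 UMIs. Doublets were kept, since the automatic Scrublet threshold marked 0.0139% of heterozygote and 8.05% of wild-type barcodes. An alternative removed the highest scores, at 0.8% per 1000 barcodes. Subgroups came from Leiden clustering of the members on 1500 variable genes and 15 principal components, at resolution 0.8.

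Named genes were the 12 highest and 12 lowest by the interval bound nearest to 0 with at most 25% of UMIs in 1 nucleus, the 10 highest and 10 lowest against each interneuron set by the smaller ratio of both libraries, and the extreme members of each list, leaving out mitochondrial, Xist, Tsix, Y-linked and rule genes and models without symbols. Alternatives changed the filters, thresholds, depth, weighting, floor and subgroups included, and those leaving out or keeping subgroups were chosen after seeing the data. Some genes that met these rules are not reported here.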

Additional observations from a re-analysis of the deposited data

How the results depend on the processing

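No paired analysis was possible because each genotype had 1 library and the labels share a single replicate number. The counts of genes past 1.5-fold depended most on depth and floor. With nuclei thinned to 2000 UMIs they were 440 higher and 503 lower, with Capza2 at -0.52 and Ptn and Cacna2d3 reversed at -0.87 and -0.19. With a floor of 50 UMIs they were 306 and 285 of 5613 genes, and with a floor of 200 they were 45 and 18 of 1563. Without subgroup 6 there were 77 higher and 72 lower of 2802, and in subgroups 2 to 4 alone 45 higher and 51 lower of 1555, with Prr16 reversed at 0.35. Against Adarb2 interneurons a floor of 200 gave 95 higher and 148 lower of 4345. The cause of each shift was not tested beyond the change in genes or nuclei compared. Without the nucleus with most of its UMIs in each library, Ntng1 reversed at 0.44. Of 1469 values under all settings, 1240 stayed within their limits, 225 moved and 4 reversed. A floor of 1000 genes and a sum of at least 5 for Nxph1, Sox6, Lhx6 and Pvalb each kept the same 65 and 83 members. Their expression values could not move and are counted among the 1240, so the tally is a description only. Clustering at resolution 0.5 gave 5 subgroups, joining 2 with 3 and 4 with 7, and at 1.2 gave 7. Few UMIs per gene limit what single genes show, and intervals leave out variation between mice.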

Other observations

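Transcripts of the mitochondrial genome and of immediate early genes were fewer in the heterozygote members. The mitochondrially encoded genes summed to 400 UMIs in the heterozygote and 996 in the wild type, a log2 ratio of -1.06 (-1.23 to -0.89). The 6 compared were all over 1.5-fold lower, with a median of -1.02. In the Pvalb basket-like subgroups 2, 3 and 4 alone, the median was -0.27, under 1.5-fold. The median share of UMIs from these genes was 0.0301% and 0.0866% in the members, 0.0495% and 0.0878% in Sst interneurons, 0.0469% and 0.0950% in Adarb2 interneurons, and 0.0618% and 0.0876% in all kept nuclei. Of 28 nuclear-encoded respiratory chain genes, 1 was over 1.5-fold higher, Cox5b (0.83), and none lower, with a median of 0.04. The immediate early genes, which neuronal activity and tissue handling induce, summed to 279 and 528 UMIs (-0.66, -0.87 to -0.45). Fos had 5 UMIs in 4 nuclei against 31 in 16, Egr1 had 15 in 10 against 42 in 26, and Nr4a3 had 4 in 2 against 35 in 10. Of this list, Homer1 alone passed the floor, at -0.30. Of 6 endoplasmic reticulum chaperones compared, none passed 1.5-fold, with a median of 0.00.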
